A study of Mus musculus with 2 samples.

Results

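The Mirg cluster is the distal group of microRNA genes in the imprinted Dlk1-Dio3 domain of mouse chromosome 12. It runs from Mir379 to Mir410 on the plus strand, and its 35 members were taken as a fixed list of gene symbols from the 2202 microRNA genes counted in each library. Membership rests on position and name, not on any measured value, but the list was chosen with earlier results of these data known. MicroRNA sequencing, with inserts under 30 nt, was carried out on total RNA of the gastrocnemius, a muscle of the calf. The tissue came from male B6CASTF1/J pups, the first-generation hybrids of a C57BL/6J and a CAST/EiJ parent, at an age of 4 days. No treatment or engineered allele is given, and there is a single group of 2 libraries. The labels number them as biological replicates 1 and 2, from separate biosamples of animals numbered 3 and 4 under a shared donor identifier. With no second condition, each test compares the reads of these 2 libraries and measures departure from counting noise only.

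MicroRNAs are cut from hairpin precursors as RNAs of about the same length, and each hairpin can give a mature RNA from its 5′ and from its 3′ arm. Bases 2 to 8 of a mature RNA, the seed, do most of the pairing with target messenger RNAs. Members of the Mirg cluster are expressed from the maternal chromosome and are thought to be processed from long noncoding transcripts that also pass through Meg3 and Rian. The cluster is best known in brain, placenta and embryonic tissues. Loss of the Mir379 to Mir410 interval in mice impairs the metabolic adaptation of newborns, and the transcription factor Mef2, a regulator of muscle and nerve genes, drives it in neurons.

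By mm10 coordinates in GENCODE M21, the members lie between positions 109709060 and 109743795 of chromosome 12, a stretch of 34.7 kb. The members were described as lying within the Mirg transcript, but in this annotation the Mirg gene spans positions 109729764 to 109749460 and holds only the last 11 of them, from Mir382 to Mir410. The other 24 lie upstream of its start. Of the 11, Mir134, Mir485, Mir377 and Mir410 fall wholly within a Mirg exon, Mir382, Mir668, Mir412 and Mir369 partly, and Mir154, Mir541 and Mir409 in an intron. The name Mirg cluster is kept here for the listed genes.

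All 35 members were matched to RefSeq (GRCm38.p6), which lists 66 mature RNAs for them, of 19 to 25 nt. The first set below shows mature RNAs of the members on which the results turn: the 5 with the most reads, and, of the members with reads in both libraries, Mir154, which differed least, and Mir380 and Mir410, which differed most. Capitals mark the seed.
miR-411-5p: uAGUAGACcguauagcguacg
miR-411-3p: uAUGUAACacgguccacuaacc
miR-379-5p: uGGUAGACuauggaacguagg
miR-379-3p: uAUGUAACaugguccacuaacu
miR-487b-5p: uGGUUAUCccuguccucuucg
miR-541-5p: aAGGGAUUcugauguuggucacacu
miR-541-3p: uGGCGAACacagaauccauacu
miR-382-5p: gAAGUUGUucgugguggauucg
miR-382-3p: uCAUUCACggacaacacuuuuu
miR-154-5p: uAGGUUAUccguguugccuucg
miR-154-3p: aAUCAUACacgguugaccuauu
miR-380-5p: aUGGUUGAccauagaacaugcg
miR-380-3p: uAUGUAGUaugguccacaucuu
miR-410-5p: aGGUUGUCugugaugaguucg
miR-410-3p: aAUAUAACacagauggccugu

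The second set shows further arms that are near copies of each other or share a seed with another member. Of these genes, only Mir376b and Mir376c share a 22 nt window of the hairpin with a microRNA gene at another position.
miR-376c-5p: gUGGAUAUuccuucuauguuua
miR-376b-5p: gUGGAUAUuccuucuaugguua
miR-376b-3p: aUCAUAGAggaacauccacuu
miR-376a-3p: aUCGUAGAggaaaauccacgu
miR-300-3p: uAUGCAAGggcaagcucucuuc
miR-381-3p: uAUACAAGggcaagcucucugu
miR-543-3p: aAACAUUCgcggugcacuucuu
miR-495-3p: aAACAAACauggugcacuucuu
miR-1193-5p: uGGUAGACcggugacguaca
miR-494-5p: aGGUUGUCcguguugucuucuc
miR-1197-5p: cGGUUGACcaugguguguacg
miR-758-5p: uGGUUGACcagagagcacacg

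Across the 66 mature RNAs there were 61 different seeds, and 5 seeds were shared by 2 members each. AUGUAAC is the seed of miR-379-3p and miR-411-3p, which differ at 2 of 22 bases. UGGAUAU is that of miR-376c-5p and miR-376b-5p, which differ at 1 of 22 bases. GGUAGAC is shared by miR-379-5p and miR-1193-5p, GGUUGAC by miR-1197-5p and miR-758-5p, and GGUUGUC by miR-494-5p and miR-410-5p. Near copies with different seeds were miR-300-3p and miR-381-3p with 3 mismatches in 22 bases, miR-376b-3p and miR-376a-3p with 3 in 21, and miR-543-3p and miR-495-3p with 4 in 22. A further 11 member seeds are also carried in RefSeq by a microRNA that is not a member, such as that of miR-329-3p by miR-362-3p. The deposited counts are per gene and do not separate the arms, so no value can be given for a single seed.

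Short letter runs recur in these sequences, and those searched were chosen after the sequences had been seen. On the mature strand alone, ACANGG occurred in 10 of the 66 member RNAs (15.2%), from 10 genes, against 3.16% of all 1738 mature RNAs in the table, members included. It also occurred in 2 of the 46 mature RNAs of the other genes of the domain. In miR-379-3p and miR-411-3p above it begins inside the seed and runs past it. GGUNGAC occurred in 9 of 66 (13.6%) against 0.748% of all, and in 0 of the 46 mature RNAs of the other genes of the domain. In miR-379-5p and miR-1193-5p it is the seed itself, so this run and the shared seeds overlap. These matches describe the letters and say nothing of a bound factor.

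Before the members are described, 1 property of the libraries has to be stated. Replicate 1 held 8522350 reads and replicate 2 held 7240126, and sense reads of microRNA genes made up 4458853 (52.3%) and 3073086 (42.4%) of them. Mir206, a microRNA of skeletal muscle, had 652657 reads in replicate 1 and 101 in replicate 2. Mir208a, which lies in the gene of the cardiac alpha myosin heavy chain, had 59 and 29718. In replicate 2 these markers go against the label of gastrocnemius, so values are given for each library alone throughout, and the library labelled replicate 2 is not treated as a second measurement of the same muscle. Levels are reads in 1000000 sense microRNA reads (CPM) and are not divided by length, since the mature RNAs are of nearly 1 length.

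The cluster was a major component of the counted sense microRNA reads of replicate 1 and a minor one of replicate 2. Multimapping reads, 35.7% and 45.1% of all reads of the 2 libraries, are outside these totals. Its members held 866026 reads in replicate 1, 19.4% of sense microRNA reads (exact Clopper-Pearson 95% interval 19.39 to 19.46%), and 18612 reads in replicate 2, 0.606% (0.597 to 0.614%). The share was thus 32.1-fold higher in replicate 1. Folds of shares are relative to the total of sense microRNA reads, whereas log2 ratios use the TMM effective library sizes, on which the summed reads gave a log2 ratio of −5.63. Over the 2 libraries the mean was 10.01% with an SD of 13.3, so that the mean describes neither. The median member stood at 1495 CPM in replicate 1 and 24.7 CPM in replicate 2. Intervals cover counting error only, since reads without molecular identifiers are not independent molecules. In bulk tissue, fewer cells of a type and less RNA per cell cannot be told apart.

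**Figure D1:**
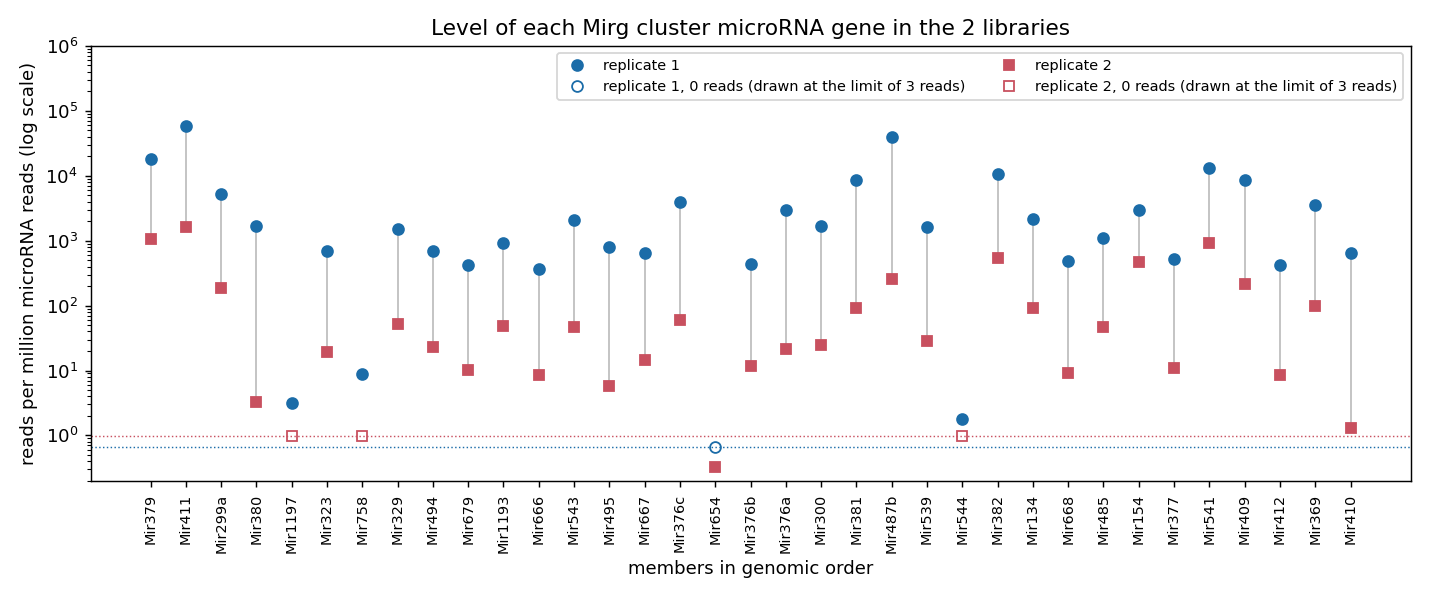
CPM, reads in 1000000 sense microRNA reads (log scale), of the 35 members in genomic order, circles or squares for each of the 2 libraries, with open symbols at the limit of 3 reads where a library had 0 reads. For the 34 members with reads in replicate 1 the replicate 1 symbol stands above that of replicate 2, and Mir654 had 0 reads in replicate 1 and 1 in replicate 2.

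Of the 35 members, 33 had at least 10 reads over both libraries and were tested, and 33 of 33 were lower in replicate 2 by an exact two-sided binomial test at effective library sizes (TMM), Benjamini-Hochberg adjusted over all 410 tested genes. A gene counted as lower at an adjusted p under 0.05 and at least a halving of its level. Of the 33, 30 had at least 10 reads in each library, and all 30 were lower. Mir1197, Mir758 and Mir410 passed the minimum through replicate 1 alone, so they could be called lower but not higher. By the same test 36.1% of all tested genes were lower, and 26.2% of those outside the Dlk1-Dio3 domain. The members' median log2 ratio, replicate 2 over replicate 1, was −5.95, a 61.9-fold difference, with quartiles of −6.43 and −5.37. Over all tested genes the median was −0.33, and over those outside the domain 0.05. The members' count is above that background, but the test sees only counting noise. With a dispersion estimated from the pair of libraries, edgeR's exact test called 0 members at an adjusted p under 0.05 and 11 at an unadjusted one. That dispersion took both libraries as 1 group and so contains the difference under test. Few calls were possible, and the 0 does not show that the members are alike in the libraries.

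Markers of several cell types were also compared between the libraries, and they did not all move in the direction of the cluster. The 6 skeletal muscle microRNA genes checked together held 14.6% of reads in replicate 1 and 0.00947% in replicate 2, with 3 of 5 tested genes lower. Mir206 alone held 14.6% of reads in replicate 1 and 0.00329% in replicate 2, so the list's share is in effect that of Mir206. Mir1a-2 went the other way, with 87 and 156 reads (log2 ratio 0.75), and Mir1a-1 had 13 and 6 reads. Neither was called. Mir1a-1 and Mir1a-2 are copies with the same mature RNA, as are Mir133a-1 (34 and 16 reads) and Mir133a-2 (2 and 2). Reads that map to several places can be missing from such counts. The low counts of these copies therefore do not show that their mature RNAs were scarce in either library. A wider muscle list also named Mir208b, Mir499 and Mir486, which the shares above leave out. Of them, Mir208b was called higher, with 1068 and 4340 reads (log2 ratio 1.93). Heart was checked with Mir208a alone, at 0.00132% and 0.967%. The fibroblast list (Mir199a-1, Mir199a-2, Mir199b and Mir214) held 0.591% and 0.281%, with 3 of 3 tested genes lower and Mir199a-1 at 0 reads in replicate 2. The blood list held 0.0758% and 0.391%, with 4 of 6 genes higher and 1 lower. Mir126a of endothelium held 2.54% and 6.62% of reads and the smooth muscle pair Mir143 and Mir145a 2.17% and 4.90%, none of the 3 past the threshold of 1 log2 unit on the TMM scale. The 6 Mir9 and Mir124a genes, used as neural markers, had 0 reads in both libraries. These too are copies with the same mature RNA, whose reads map to several places and can be missing from such counts. A wider neural list also held genes with reads. Of these, Mir128-1 (3180 and 783 reads), Mir128-2 (1641 and 137) and Mir338 (1506 and 360) were called lower. Their log2 ratios were −2.11, −3.66 and −2.15. Mir219a-1, with 8 and 25 reads (1.45), was called higher. The part of these markers in the difference of the cluster was not tested.

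**Figure D2:**
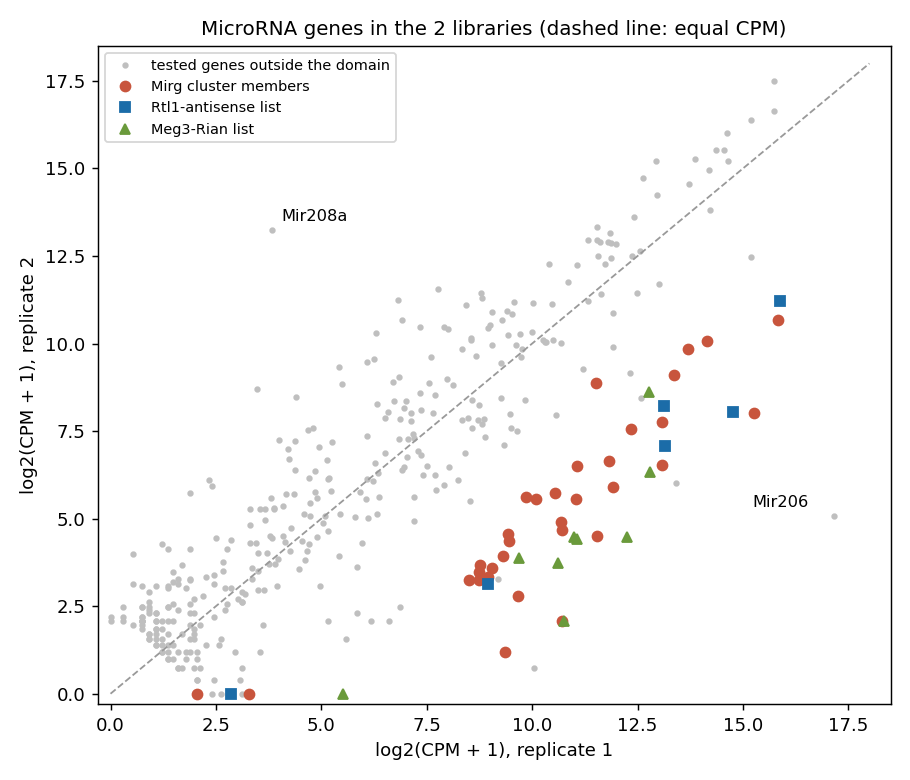
Each point is a tested microRNA gene, with log2(CPM + 1) in replicate 1 on the x axis and in replicate 2 on the y axis. The dashed line marks equal CPM. Colours mark the members, the genes listed at Rtl1, the genes within Meg3 and Rian, and the genes outside the domain. Tested genes of the domain in none of these groups are not drawn. The 33 tested members form a band below the line, while genes outside the domain lie on both sides, with Mir206 and Mir208a at the extremes.

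The 5 members with the most reads were Mir411, Mir487b, Mir379, Mir541 and Mir382. Together they held 71.8% of the cluster's reads in replicate 1 and 73.5% in replicate 2. Mir411 had 260343 and 5052 reads, or 58388 and 1644 CPM, the most of any member in both libraries. It ranked 3 among all microRNA genes in replicate 1 and 51 in replicate 2. Its log2 ratio was −5.78 (95% counting interval −5.82 to −5.74), a 54.8-fold difference. Mir411 therefore stayed the leading member while its library rank was far lower in replicate 2.

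Mir487b was second in replicate 1 with 174719 reads and had 795 in replicate 2, a log2 ratio of −7.87 (−7.97 to −7.77). Its share of the cluster's reads was 20.2% (20.1 to 20.3%) in replicate 1 and 4.27% (3.99 to 4.57%) in replicate 2, 4.72-fold less. Of the 5 leading members it was the one that differed most between the libraries, and the only one outside the 5 leading members of replicate 2, where Mir154 took its place.

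Mir379, the first gene of the cluster and a regulator of lipid metabolism in liver, was counted at 80828 and 3308 reads (log2 ratio −4.70, interval −4.75 to −4.65). Mir541 had 58764 and 2834 (−4.46, −4.52 to −4.41). Mir382 had 47055 and 1682 (−4.89, −4.97 to −4.83). All 3 took a larger part of the cluster in replicate 2: Mir379 moved from 9.33% to 17.8% of its reads, Mir541 from 6.79% to 15.2% and Mir382 from 5.43% to 9.04%. Their 95% intervals did not overlap between the libraries.

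Mir154, the microRNA that gives a family of related members its name, was the least different of the members with reads in both libraries. It was 9.63-fold lower in replicate 2, with 13106 and 1447 reads (log2 ratio −3.27, interval −3.35 to −3.19). Its share of the cluster's reads was 1.51% (1.49 to 1.54%) in replicate 1 and 7.77% (7.39 to 8.17%) in replicate 2, 5.14-fold more. It ranked 56 among all microRNA genes in replicate 1 and 91 in replicate 2, the smallest loss of rank among the members with at least 1000 reads in replicate 2.

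At the other end, Mir380 had 7421 reads in replicate 1 and 10 in replicate 2, a log2 ratio of −9.48 (−10.69 to −8.75). Mir410, the last gene of the cluster, had 2902 and 4 (−9.26, −11.47 to −8.23). These are 716-fold and 614-fold differences, with wide intervals set by the few reads of replicate 2. Both stand next to members with much smaller differences: Mir380 lies beside Mir299a (23342 and 572 reads, −5.44), and Mir410 beside Mir369 (16043 and 304 reads, −5.81). Mir369 is known for a role in translation of the messenger RNA of tumour necrosis factor.

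**Figure D3:**
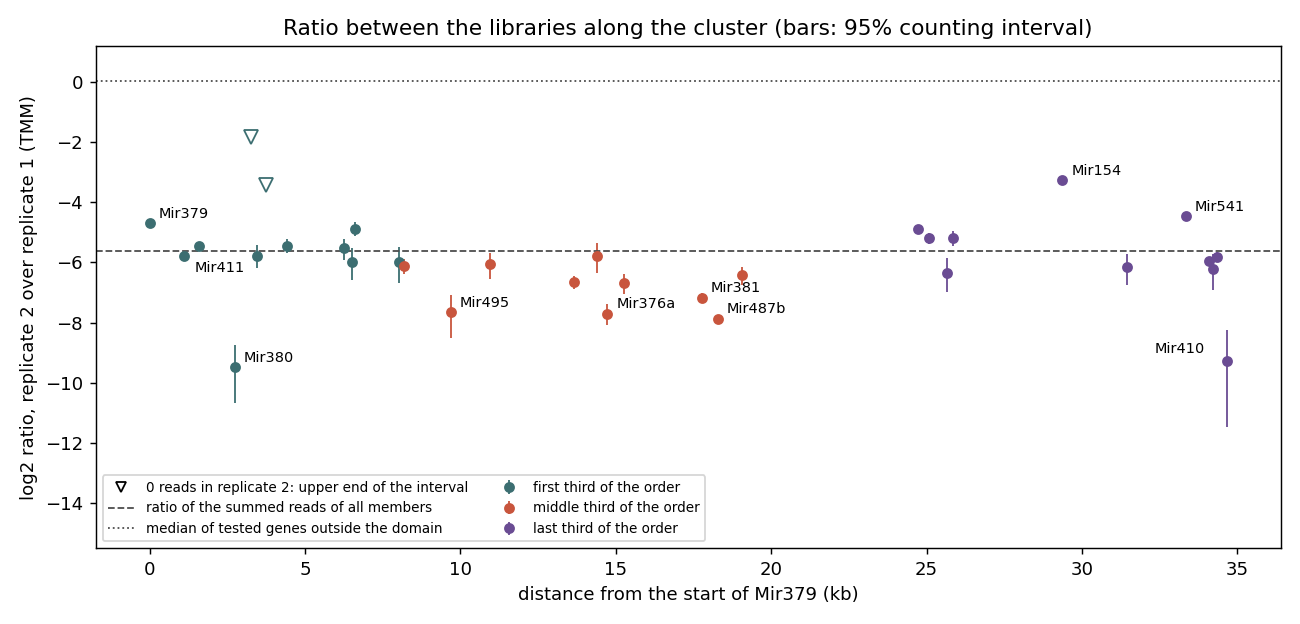
Log2 ratio of replicate 2 over replicate 1 (TMM scale) of each tested member against its distance in kb from the start of Mir379, with 95% counting intervals, coloured by the first 12, middle 12 and last 11 members in order. Of the members with reads in both libraries Mir380 and Mir410 stand lowest and Mir154 highest, the 2 members with 0 reads in replicate 2 are open triangles at the upper end of their intervals, and the 10 tested members of the middle 12 all lie below the dashed line of the summed reads at −5.63.

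The remaining members of the first 12 genes spanned a narrower range. Mir299a, Mir329 (6665 and 161 reads) and Mir494 (3077 and 70) had log2 ratios of −5.44, −5.45 and −5.53. Mir329 acts with Mir134 on Pum2 in dendrites, and Mir494 has been tied to mitochondrial biogenesis in muscle cells. Mir323 had 3130 and 60 reads (−5.77), Mir679 had 1897 and 31 (−5.98) and Mir666 had 1623 and 26 (−6.00). Mir1193 was less different, at 4136 and 149 reads (−4.87). Mir1197 had 14 reads in replicate 1 and 0 in replicate 2, at least 4.97-fold lower when the 14 reads are taken as they stand against a limit of 3 reads in replicate 2. The 95% counting interval of both libraries together begins at 3.53-fold. Mir758 had 39 and 0 reads, at least 13.8-fold lower by the same limit, with an interval that begins at 10.7-fold.

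The middle 12 genes, from Mir543 to Mir544, held the most uniformly large differences. The Mir376 genes, whose transcripts are known targets of A-to-I editing in the seed, were unequal among themselves. Mir376a had 13263 and 67 reads (−7.70, −8.09 to −7.37), Mir376c had 17365 and 182 (−6.66, −6.88 to −6.45), and Mir376b had 1922 and 36 (−5.79, −6.35 to −5.35). The 3 intervals did not overlap. Because miR-376c-5p and miR-376b-5p differ at a single base, and these genes share a 22 nt window, the division of reads between Mir376b and Mir376c is uncertain.

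Among their neighbours, Mir381, which also acts on Pum2 in neurons, had 38338 and 282 reads (−7.17, −7.35 to −7.01). Mir300, whose 3′ arm is its near copy, had 7440 and 76 reads (−6.68, −7.05 to −6.38). Mir495, reported to target Bdnf, had 3612 and 18 reads (−7.66, −8.49 to −7.08). Its near copy Mir543 had 9350 and 142 reads (−6.12, −6.38 to −5.89). So the members of both pairs differed in level within each library, and in the second pair the intervals of the ratio did not overlap. Mir667 had 2832 and 44 reads (−6.06) and Mir539 had 7294 and 89 (−6.43). Mir654 had 0 and 1 read and Mir544 had 8 and 0, too few to test.

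In the last 11 genes the differences were again mixed. Mir134, which limits dendritic spine size through Limk1, had 9565 and 278 reads (−5.19), and Mir485, which acts at synapses, had 4880 and 142 (−5.18). Mir409 had 38586 and 662 reads (−5.95), the median of the cluster. Mir377, known to raise fibronectin in kidney cells, had 2362 and 34 reads (−6.17), Mir668 had 2199 and 28 (−6.33), and Mir412 had 1906 and 26 (−6.23). These genes are the ones inside the annotated Mirg gene, and their median of −5.81 was close to that of −5.99 over the 22 tested members upstream of it.

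Read as blocks along the chromosome, the first 12 members held 8.80% of microRNA reads in replicate 1 and 0.307% in replicate 2, a 28.7-fold difference. The middle 12 held 6.19% and 0.0564%, a 110-fold difference, and the last 11 held 4.43% and 0.242%, an 18.3-fold difference. The middle block thus made up 31.9% of the cluster's reads in replicate 1 (31.8 to 32.0%) and 9.31% in replicate 2 (8.89 to 9.73%). On the TMM scale the summed reads of the 3 blocks gave log2 ratios of −5.47, −7.41 and −4.82, and the medians of their members were −5.49, −6.67 and −5.81. All 10 tested members of the middle block were below the ratio of the summed reads (−5.63), against 5 of 12 in the first and 6 of 11 in the last. Members of a block share libraries and may share a precursor, so these are descriptions with no test. Mir487b alone held 174719 of the 276143 reads of the middle block in replicate 1.

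There was no steady trend with position: across the 33 tested members, Pearson's r between the log2 ratio and the distance from Mir379 was −0.03 and Spearman's rho −0.19. With the level in replicate 1 the ratio gave −0.12 and 0.04, and with the GC content of the hairpin 0.18 and 0.19. The members kept much of their order of level, with r = 0.88 and rho = 0.89 between log2(CPM + 1) in the 2 libraries. Among genes with at least 10 reads in each library, 30 members gave 0.87 and 0.87 and 254 genes outside the domain gave 0.84 and 0.83. These points share both libraries, and members are not independent. Of the 10 leading members of each library, 9 were the same.

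**Figure D4:**
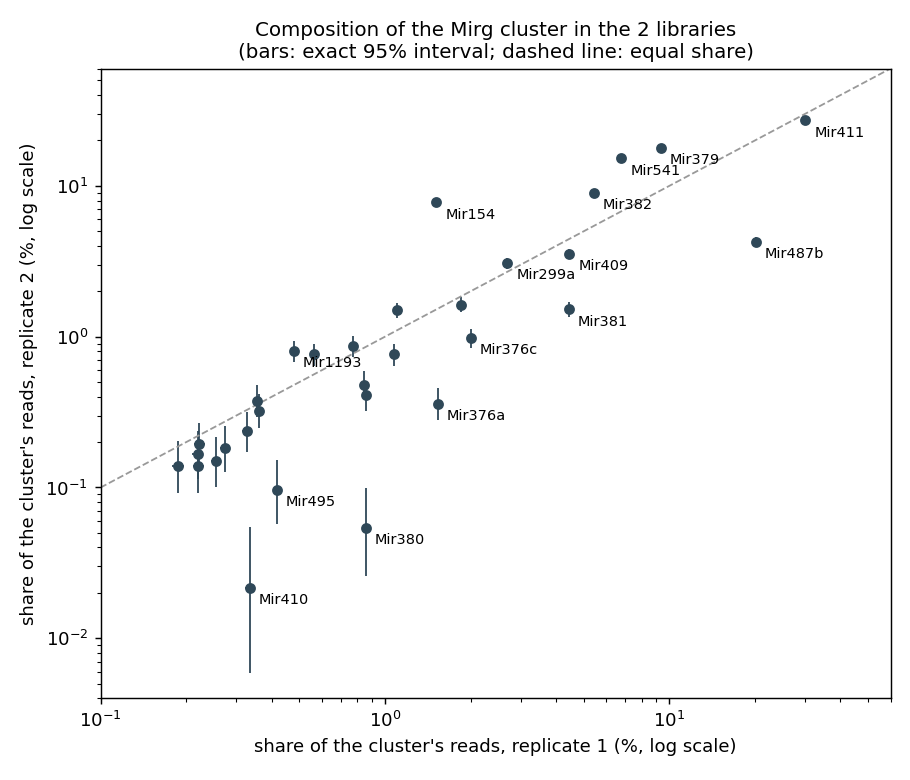
Share of the cluster's reads held by each member in replicate 1 (x axis) and replicate 2 (y axis), both in percent on log scales, with exact 95% intervals and a dashed line of equal share. Mir154, Mir379, Mir541 and Mir382 lie above the line, and Mir380, Mir410, Mir487b, Mir376a and Mir495 lie farthest below it.

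The make-up of the cluster nevertheless differed by more than counting error. The 95% intervals of the share of cluster reads did not overlap between the libraries for 23 members. It was higher in replicate 2 for 8, which were Mir379, Mir299a, Mir1193, Mir382, Mir134, Mir485, Mir154 and Mir541. Of the 15 that were lower, 8 belong to the middle 12 genes, 2 to the first 12 and 5 to the last 11. For the other 12 members, which include the 5 with the fewest reads, the intervals overlapped. Overlap does not show equal shares: by the interval of the log2 ratio itself, 25 members excluded the ratio of the summed reads, Mir369 (−5.98 to −5.65) and Mir667 (−6.56 to −5.67) among them. In replicate 2 only 5 members had at least 1000 reads, against 31 in replicate 1, so that precision there is limited by replicate 2.

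In rank, 10 members were among the 50 most abundant microRNA genes of replicate 1 and 0 were among those of replicate 2. Among the first 100 there were 23 and 5, and among the first 200 there were 31 and 16. Of the 410 tested genes, 75 had a log2 ratio at or below that of Mir154, with a prior count of 1. They comprised the 33 members, 20 other genes of the domain and 22 genes outside it, so ratios of this size also occur elsewhere. The count of 33 includes Mir1197 by the prior count alone, since with a prior count of 3 its ratio was −2.54.

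Genes elsewhere in the domain were also lower in replicate 2. The microRNA genes listed at Rtl1 went from 10.7% to 0.308% of reads, a 34.7-fold difference in share and a log2 ratio of summed reads of −5.74. Of these, 6 of 6 tested were lower, with a median log2 ratio of −6.05. Mir127, the largest of them, had 269519 and 7304 reads (−5.29). The list and its median include Mir3071 (28 and 0 reads), which lies on the minus strand opposite Mir136, whereas its other genes are on the plus strand. The genes within Meg3 and Rian went from 2.73% to 0.0560%, 48.7-fold in share and −6.23 in log2 ratio, with 9 of 9 lower and a median of −7.31. In all, 66 microRNA genes are annotated from the start of Meg3 to the end of Mirg, and 55 of 55 tested were lower. The cluster held 59.0% (58.9 to 59.1%) of the reads of this domain in replicate 1 and 62.2% (61.7 to 62.8%) in replicate 2. Mir496a, which lies between the members but is not in the list, had 2530 and 82 reads (−5.02), inside their range. Of 5 microRNA genes at other imprinted loci (Mir335, Mir483, Mir675, Mir296 and Mir298), 5 were lower, with a median of −3.36, their summed share being 4.71% and 0.696%. None of these medians was tested against that of the cluster.

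How reads are assigned to strands matters for 5 members, which have a microRNA gene annotated on the opposite strand. They are Mir299a, Mir380, Mir376a, Mir539 and Mir409. In the deposited unstranded column 4 of them had 0 reads in both libraries, and Mir299a had 14 and 0. That column sets reads over overlapping genes aside as ambiguous, and it held fewer of the cluster's reads than the sense column by 89892 in replicate 1, 10.4% of them, and by 1400 (7.52%) in replicate 2. The sense column, used throughout, keeps them. On the antisense strand of all 35 members there were 12 reads in replicate 1 and 1 in replicate 2, all over Mir299a.

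**Figure D5:**
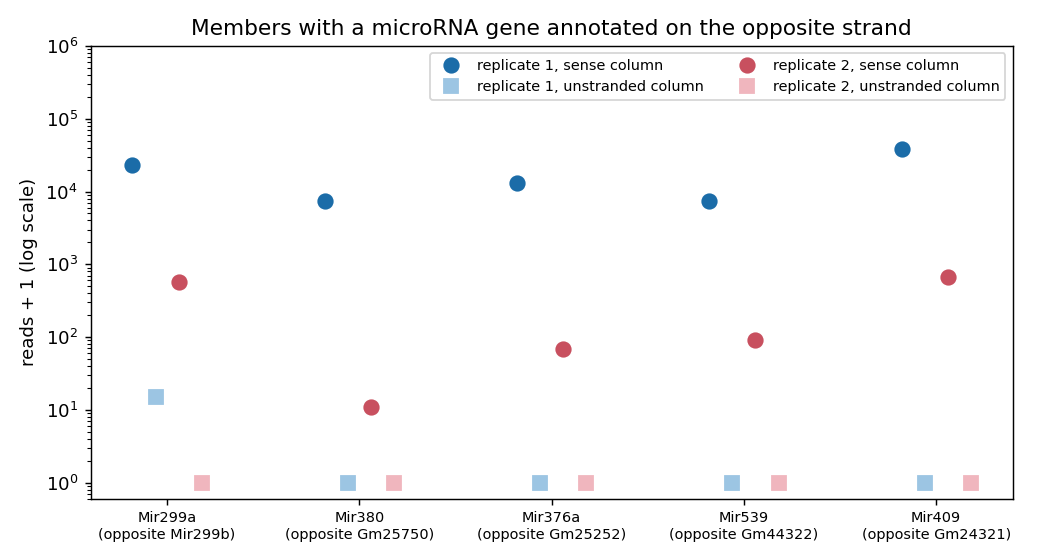
Reads + 1 (log scale) in the sense and unstranded columns for the 5 members with a microRNA gene on the opposite strand, in both libraries. The sense symbols lie between 10 and 38586 reads, whereas the unstranded symbols are at 0 reads except for Mir299a in replicate 1, at 14 reads.

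Those antisense reads are the sense reads of Mir299b, which had 12 and 1. The RefSeq mature RNAs of Mir299b are contained in those of Mir299a, as the following lines show, so the reads of this pair cannot be divided by sequence with certainty. Capitals again mark the seed.
miR-299a-5p: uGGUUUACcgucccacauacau
miR-299b-5p: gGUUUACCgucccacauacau
miR-299a-3p: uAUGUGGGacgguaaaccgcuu
miR-299b-3p: uAUGUGGGacgguaaacc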

How the data were processed

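The authors' deposited tables hold raw read counts by gene, in unstranded, sense and antisense columns. The genome was mm10 and the annotation GENCODE M21, per the file headers. The aligner was not given in the sources used here. The 4 summary lines were left out of library sizes. Unmapped reads were 9.97% and 8.60% of replicates 1 and 2, multimapping reads 35.7% and 45.1%, and reads outside genes 2.05% and 3.83% in the sense column. All 2202 identifiers matched GENCODE M21, and 0 columns of other samples were used.

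Sense counts were scaled by TMM (edgeR 4.0.16, R 4.3.3). Genes with at least 10 reads over both libraries were compared by an exact two-sided binomial test (scipy 1.17.1) with Benjamini-Hochberg adjustment, called at an adjusted p under 0.05 and a log2 ratio of at least 1 in size. Log2 ratios used a prior count of 1, and shares have exact 95% intervals. A count of 0 allows up to 3 reads, or 0.673 CPM in the first library and 0.976 CPM in the second. The test was checked on data simulated with counting noise alone, as the test assumes. That check does not cover variation between animals. DESeq2 1.42.0 gave alternative size factors. RefSeq sequences are of GRCm38.p6. All listed members are named. Other genes named are the label check, some genes of the marker and comparison lists, and genes that overlap or lie between members. The members and lists were chosen with earlier results of these data known. Naming the leading and most extreme members, and the searched letter runs, followed their values or sequences.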

Additional observations from a re-analysis of the deposited data

Results flagged for a closer look

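A signal appeared in the antisense column, which enters no comparison above: 12 reads over Mir299a in replicate 1, above the 3 reads that a count of 0 allows. These are the reads counted for Mir299b on the minus strand, and the other 34 members had 0 antisense reads in both libraries.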

How the results depend on the processing

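All tested members were lower in replicate 2 under DESeq2 size factors, total reads and TMM without the domain (33 of 33 each), in the unstranded column (29 of 29), with at least 100 reads (31 of 31) and without Mir299a, Mir376b and Mir376c (30 of 30). With at least 1 read, 34 of 35 were. With a dispersion estimated from the pair, edgeR's exact test called 0 members (11 at an unadjusted p under 0.05), 0 of all genes lower (27 unadjusted) and 0 higher (1 unadjusted). That dispersion contains the difference under test, so few calls were possible. The main counts over all genes were 148 lower and 72 higher. Leaving out the domain, an alternative added after seeing the data, gave 93 lower; scaling by total reads gave 135 higher, and a minimum of 100 reads gave 45 higher. The higher calls were 32.7% of all calls, against 44.1% after scaling by DESeq2 and 54.0% after scaling by total reads. The median over all tested genes was −0.33, −0.07, 0.26 and −0.46 with TMM, DESeq2, total reads and TMM without the domain. The members' median of −5.95 became −5.67, −5.33 and −6.09 with the last 3, −5.62 in the unstranded column and −5.81 with at least 1 read. The cluster's share of 19.4% in replicate 1 was 19.8% unstranded, 10.2% of all reads and 22.8% without Mir206 (added after seeing the data). Its 0.606% in replicate 2 was 0.779% unstranded and 0.257% of all reads. The mean share over both libraries ranged from 0.606% without replicate 1 to 19.4% without replicate 2. The 5 leading members held a mean of 72.6% of the cluster's reads, 79.8% unstranded, and 71.8% to 73.5% with 1 library left out. The lower read counts of the tested members in replicate 2 limit the precision of their ratios. No paired analysis was possible because the labels give a single group.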
